A study of Mus musculus with 12 samples.

Results

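The genes described here are 53 mouse genes of proliferation and mitosis, chosen by name from a list of known cell cycle genes among the 34245 genes of a count table. They comprised 10 genes of replication licensing and the replication fork, 4 of nucleotide supply, 10 cyclins and cyclin-dependent kinases, 5 transcription factors, 10 mitotic kinases with checkpoint and anaphase-promoting complex genes, 12 genes of the kinetochore, spindle and cytokinesis, and the chromosome markers *Mki67* and *Top2a*. All 53 were present once in the table and passed the filter on low counts in every comparison. RNA of 2 sorted cell populations of the small intestine of male C57BL/6 mice was sequenced. All groups, AE included, came from Lgr5-EGFP-IRES-CreERT2 knock-in mice, in which the *Lgr5* promoter drives GFP. Intestinal stem cells (ISC) were the GFP-high, DAPI-negative cells of crypts, and no antibody was used to sort them. Adult enterocytes (AE) were the Epcam-high villus cells that were negative for CD31, CD45 and DAPI. Each population was taken from young mice of about 8 months and from aged mice of about 27 months, which gave 3 libraries each of young ISC, aged ISC, young AE and aged AE, with no treatment in any group. A young mouse of this age is middle-aged, so early adulthood was not sampled.

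As background, the epithelium of the small intestine is renewed by *Lgr5*-positive stem cells at the crypt base, whose progeny divide further in the crypt as transit amplifying cells and leave the cell cycle as they move onto the villus. Entry into S phase is driven by cyclin D and cyclin E kinases, which release E2F factors that transcribe genes of DNA replication. Genes of G2 and mitosis are transcribed later in the cycle by MYBL2 and FOXM1 with the MuvB complex, through CCAAT boxes and the cell cycle homology region (CHR). In resting cells the DREAM complex of MuvB with E2F4 and a pocket protein silences both classes.

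Library totals were between 11893817 and 26796461 counts, except 110794420 in young AE library 3. Libraries are named here by their group and the number in their column code, 1 to 3 in young and 1, 3 and 5 in aged. Library codes disagreed with the remainder of the title in 8 of 12 samples, so the group of a column was read from the code in its own header. The cell types were checked against markers: the summed level of 10 stem cell markers was 5936 to 8411 CPM (counts scaled to library size and by TMM factors) in ISC and 97.2 to 644 CPM in AE, and the summed level of 10 enterocyte markers was 1100 to 6603 CPM in ISC and 54310 to 82750 CPM in AE. The AE gate also held goblet markers, which summed to 21740 to 41010 CPM in AE against 1229 to 2003 CPM in ISC. The age of the libraries was not checked against markers here. The methods list 3 mice per cohort but tie no library to a mouse, so p-values measure the spread between these libraries, which may be technical.

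The promoters of some members are shown first, because licensing and mitotic genes differed in their E2F and CHR matches. RefSeq promoters (GRCm38.p6, 250 bases before to 50 after the start) were matched to 41 of the 53 members, which is too few for a share over all of them. Among the licensing and fork genes 8 of 10 had one, and among the mitotic genes (kinases, checkpoint, kinetochore, spindle and cytokinesis) 18 of 22. On both strands, 3 motifs were searched: E2F as TTT, then CC, CG, GC or GG, then CGC, the CHR as TTTGAA or TTTAAA, and CCAAT. An E2F motif was present in 6 of 8 licensing and fork promoters, in 0 of 18 mitotic promoters and in 2.71% of the 19155 promoters of all genes in the table. A CHR was present in 16 of 18 mitotic promoters, in 2 of 8 licensing and fork promoters and in 25.1% of all promoters. CCAAT was present in 15 of 18 mitotic promoters, in 6 of 8 licensing and fork promoters and in 38.5% of all promoters. Of the 4 promoters of nucleotide supply genes, which also serve replication, 0 had an E2F motif, 2 a CHR and 2 CCAAT. These are matches of letters and not tested sites. The 250 bases before the start are given 5′ to 3′ for *Mcm5* at chr8:75109259-75109508 (+ strand) and *Mcm6* at chr1:128359706-128359955 (- strand) as licensing genes with E2F matches, for *Cdk1* at chr10:69352913-69353162 (- strand), and for *Ccnb2* at chr9:70421555-70421804 (- strand), *Top2a* at chr11:99024190-99024439 (- strand) and *Mki67* at chr7:135716380-135716629 (- strand) as genes of G2 and mitosis. Of these, *Mcm5* and *Cdk1* carried all 3 motifs. *Cdk1*, *Ccnb2*, *Top2a* and *Mki67* were listed under other roles and are not among the 18 mitotic promoters counted above. Capitals mark the 3 motifs on either strand, and overlapping matches run together.
Mcm5: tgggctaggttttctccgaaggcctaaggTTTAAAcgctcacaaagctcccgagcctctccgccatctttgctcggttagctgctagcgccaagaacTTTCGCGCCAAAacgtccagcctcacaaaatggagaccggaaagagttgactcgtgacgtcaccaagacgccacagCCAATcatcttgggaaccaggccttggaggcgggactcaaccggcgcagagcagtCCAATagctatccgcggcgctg
Mcm6: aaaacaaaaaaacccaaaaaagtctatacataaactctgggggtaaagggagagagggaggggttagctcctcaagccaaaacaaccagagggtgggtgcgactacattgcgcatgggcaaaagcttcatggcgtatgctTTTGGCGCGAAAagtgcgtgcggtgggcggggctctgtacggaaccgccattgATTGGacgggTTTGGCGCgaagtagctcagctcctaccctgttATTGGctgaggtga
Cdk1: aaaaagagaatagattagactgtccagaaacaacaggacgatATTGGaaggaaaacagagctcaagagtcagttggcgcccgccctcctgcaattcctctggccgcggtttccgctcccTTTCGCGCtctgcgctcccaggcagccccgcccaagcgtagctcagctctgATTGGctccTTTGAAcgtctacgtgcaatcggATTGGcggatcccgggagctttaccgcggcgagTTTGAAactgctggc
Ccnb2: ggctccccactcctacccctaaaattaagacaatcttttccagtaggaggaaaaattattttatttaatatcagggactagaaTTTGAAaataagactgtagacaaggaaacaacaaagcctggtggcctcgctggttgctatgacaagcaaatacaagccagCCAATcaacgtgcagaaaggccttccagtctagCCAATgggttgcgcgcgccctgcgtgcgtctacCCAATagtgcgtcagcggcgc
Top2a: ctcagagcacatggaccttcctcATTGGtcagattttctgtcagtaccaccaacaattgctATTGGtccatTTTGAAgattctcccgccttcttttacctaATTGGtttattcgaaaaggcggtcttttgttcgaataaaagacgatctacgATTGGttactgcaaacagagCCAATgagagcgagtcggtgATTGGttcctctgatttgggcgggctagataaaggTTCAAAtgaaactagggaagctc
Mki67: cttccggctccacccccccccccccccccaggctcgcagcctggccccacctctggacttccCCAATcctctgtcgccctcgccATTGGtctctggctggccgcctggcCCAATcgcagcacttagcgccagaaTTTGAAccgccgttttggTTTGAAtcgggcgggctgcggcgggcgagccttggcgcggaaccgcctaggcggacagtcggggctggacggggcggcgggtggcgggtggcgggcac

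AE were compared with ISC at each age, which gives the level of the members in the sorted AE relative to ISC. In young mice 51 of 53 members were lower in AE than ISC at an FDR below 0.05 in edgeR's quasi-likelihood test, whereas 26.7% of the 16681 genes tested were lower. The exceptions were *Ccnd1* and *E2f2*. In aged mice all 53 were lower, against 34.2% of 15855 genes. The median log2 fold change of the members was -2.89 in young and -4.09 in aged mice, and that of all genes tested was 0.15 and -0.13. Every AE library was below every ISC library in 52 of 53 members in young mice, *E2f2* being the exception, and in 53 of 53 in aged mice, against 30.6% and 36.5% of all genes. The young median was -3.89 without young AE library 2 and -2.46 without young AE library 3, and 48 members were called without young AE library 1 (25.9% of all genes). In bulk RNA, fewer cells that express a gene and less RNA per cell cannot be told apart. The young and the aged comparison use different libraries, but the comparisons by age use the same libraries again.

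**Figure D1:**
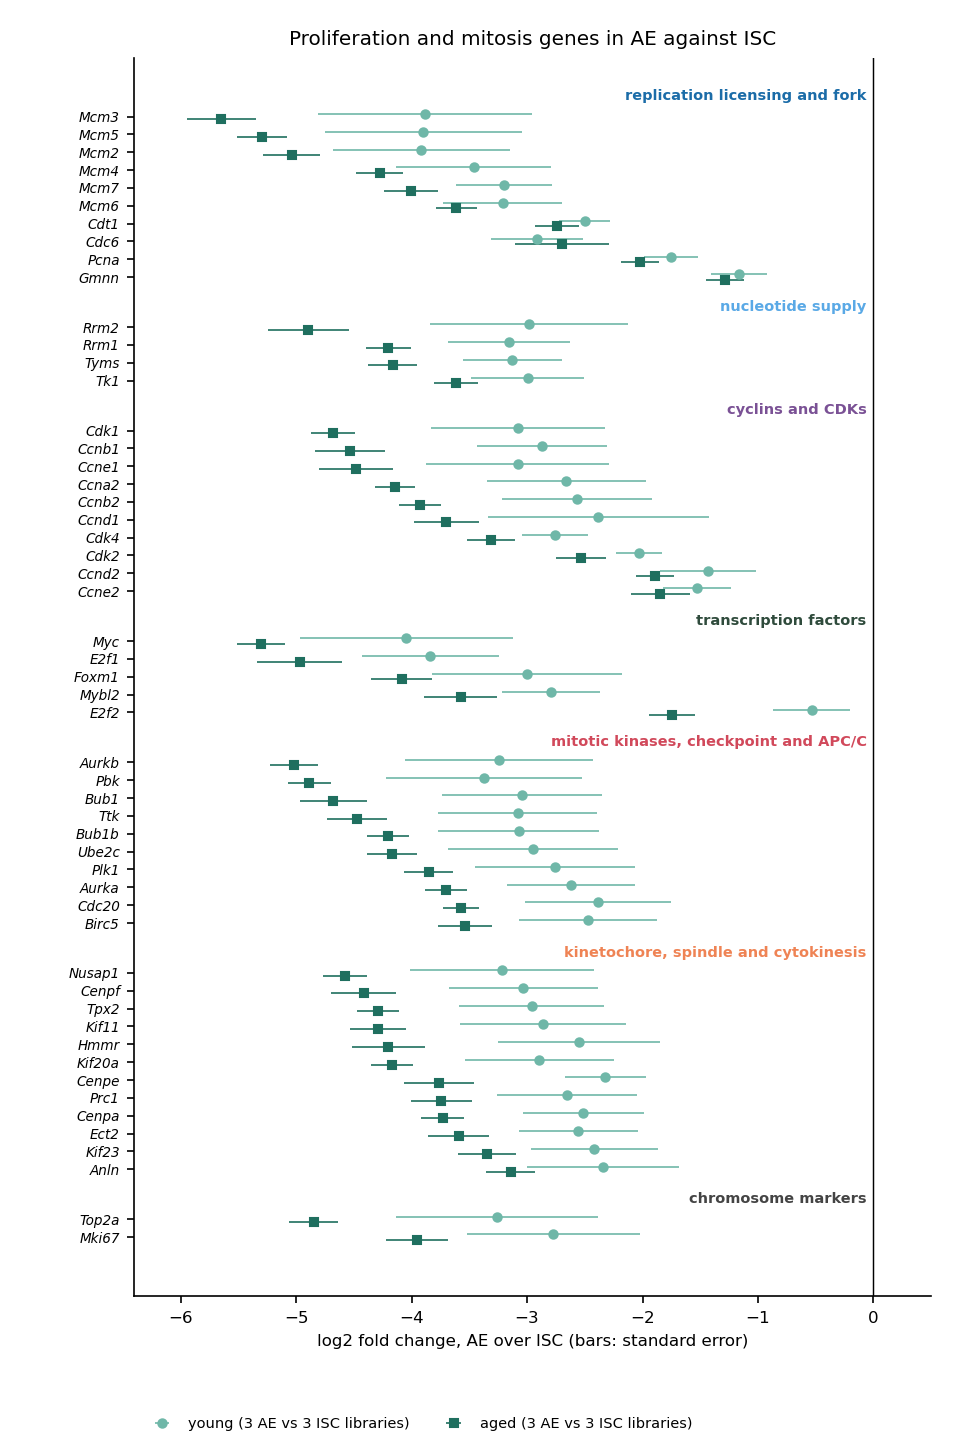
Log2 fold change of AE over ISC for each of the 53 members by role, with standard errors, in young (circles) and aged (squares) libraries. All points lie below 0, with medians of -2.89 in young and -4.09 in aged, and *E2f2*, *Gmnn*, *Ccnd2*, *Ccne2* and *Pcna* lie nearest to it.

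Licensing loads the MCM helicase, the product of *Mcm2* to *Mcm7*, onto origins with the help of *Cdc6* and *Cdt1*, and geminin, encoded by *Gmnn*, blocks reloading. All 10 licensing and fork genes were lower in AE at both ages, with median log2 fold changes of -3.21 in young and -3.81 in aged mice. *Mcm5* stood at 209.8, 212 and 173 CPM in the young ISC libraries and 178, 138 and 146 CPM in the aged ISC libraries. In AE it was 7.61, 30.3 and 2.95 CPM in young and 3.33, 4.84 and 4.14 CPM in aged libraries. No AE library came near an ISC library, and *Mcm5* was 14.9-fold lower in young AE (log2 fold change -3.90, SE 0.85, FDR 0.00899) and 39.3-fold lower in aged AE (log2 fold change -5.30, SE 0.21, FDR 1.33e-07). *Mcm3* had the largest fall of all members in aged mice, from 132, 98.9 and 111 CPM in ISC to 1.71, 3.67 and 1.64 CPM in AE (log2 fold change -5.65, SE 0.30, FDR 2.31e-07). In young mice it was 145, 156 and 124 CPM in ISC and 5.56, 22.6 and 1.62 CPM in AE (log2 fold change -3.89, SE 0.93, FDR 0.0127). *Mcm2* was 178, 173 and 133 CPM in young ISC and 6.54, 23.4 and 3.03 CPM in young AE (log2 fold change -3.92, SE 0.77, FDR 0.00579). These genes were therefore among the lowest of all members in AE relative to ISC.

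The fork clamp *Pcna*, which also serves DNA repair, was less reduced. Its level was 132, 168 and 149.5 CPM in young ISC, 153, 118 and 117 CPM in aged ISC, 32.5, 59.7 and 41.6 CPM in young AE and 35.6, 33.8 and 31.3 CPM in aged AE. AE thus held 29.8% of the ISC mean in young and 25.9% in aged mice, a 3.36-fold (FDR 0.000507) and 4.05-fold (FDR 2.55e-06) difference. *Gmnn* was the member with the smallest called difference at both ages. It was 36.4, 54.9 and 51.7 CPM in young ISC, 53.8, 53.7 and 42.9 CPM in aged ISC, 15.1, 25.1 and 23.5 CPM in young AE and 24.2, 21.1 and 19.6 CPM in aged AE. The cell types did not overlap, and AE kept 44.5% and 43.1% of the ISC mean (log2 fold change -1.17, FDR 0.00394 in young and -1.29, FDR 6.59e-05 in aged mice). The origin loader *Cdc6* was 27.04, 30.2 and 19.2 CPM in young ISC, 25.8, 14.8 and 22.6 CPM in aged ISC, 3.84, 5.13 and 1.79 CPM in young AE and 2.38, 1.79 and 6.32 CPM in aged AE, a 7.52-fold and 6.49-fold difference (FDR 0.000584 and 0.000218).

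The 4 genes of nucleotide supply, which make deoxynucleotides for replication, were all lower in AE, with medians of -3.06 in young and -4.18 in aged mice. *Rrm2*, the regulated subunit of ribonucleotide reductase, was 65.1, 68.8 and 59.4 CPM in young ISC and 6.21, 18.02 and 1.29 CPM in young AE (7.91-fold lower, FDR 0.0255). In aged mice it was 60.8, 45.8 and 60.05 CPM in ISC and 3.04, 2.06 and 0.654 CPM in AE (29.7-fold lower, FDR 1.3e-06). Thymidylate synthase, *Tyms*, was 66.2, 79.7 and 72.2 CPM in young ISC, 60.9, 64.3 and 56.3 CPM in aged ISC, 6.3, 14.7 and 4.57 CPM in young AE and 3.14, 4.48 and 2.94 CPM in aged AE. The cell types did not overlap, and the fall of *Tyms* amounted to -3.13 (SE 0.43, FDR 0.000863) in young and -4.16 (SE 0.21, FDR 1.98e-07) in aged mice on the log2 scale.

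Cyclins and their kinases differed widely among themselves. The mitotic kinase *Cdk1* was 76.99, 88.96 and 92.7 CPM in young ISC, 95.9, 101 and 83.5 CPM in aged ISC, 7.03, 22.1 and 2.55 CPM in young AE and 4.38, 3.67 and 3.38 CPM in aged AE, which is 8.44-fold (FDR 0.0138) and 25.7-fold (FDR 1.33e-07) lower in AE. Its partner cyclin B1, *Ccnb1*, was 31.8, 23.9 and 35.1 CPM in young ISC and 37.3, 31.3 and 38.4 CPM in aged ISC. In AE *Ccnb1* was 3.11, 8.35 and 1.71 CPM in young and 2.57, 1.34 and 0.872 CPM in aged libraries. The fall was 7.31-fold in young (FDR 0.00437) and 23.1-fold in aged mice (FDR 7.01e-07). Cyclin E1, *Ccne1*, which acts at entry into S phase, was 12.3, 22.7 and 16.3 CPM in young ISC, 19.6, 16.6 and 13.6 CPM in aged ISC, 2.45, 4.22 and 0.384 CPM in young AE and 0.856, 0.985 and 0.436 CPM in aged AE (8.46-fold lower, FDR 0.015, and 22.3-fold lower, FDR 1.16e-06). *Cdk4*, the kinase of the D cyclins, was 304, 348 and 302 CPM in young ISC, 303, 286 and 250.5 CPM in aged ISC, 38.8, 69.4 and 33.7 CPM in young AE and 34.8, 31.7 and 22.2 CPM in aged AE. It was 6.75-fold (FDR 0.000185) and 9.93-fold (FDR 5.24e-07) lower, and among the members it had the highest level per kilobase of exon in young ISC, 97.9 CPM per kb, although it overlaps *Tspan31*.

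The D cyclins couple growth signals to the cell cycle. *Ccnd1* was 244, 214 and 142 CPM in young ISC and 32.2, 80.03 and 3.8 CPM in young AE. All 3 AE libraries were below all 3 ISC libraries, but they ranged so widely that the 5.22-fold difference was not called (log2 fold change -2.38, SE 0.96, FDR 0.0767). It was called with the library code as a replicate block (-3.13, FDR 0.0366), without young AE library 2 (-3.64, FDR 0.0406) and without young AE library 3 (-1.88, FDR 0.0101). In aged mice *Ccnd1* was 226, 128 and 204 CPM in ISC and 20.3, 10.8 and 14.2 CPM in AE, a fall that passed the test (log2 fold change -3.70, SE 0.28, FDR 1.6e-06). *Ccnd2* kept more of its level, with 334, 488 and 346 CPM in young ISC, 401, 380.5 and 436 CPM in aged ISC, 138, 228 and 67.8 CPM in young AE and 126, 115 and 104 CPM in aged AE. AE held 37.2% of the ISC mean of *Ccnd2* in young (FDR 0.0214) and 28.3% in aged mice (FDR 4.1e-06). *Ccne2* was 12.2, 18.4 and 16.8 CPM in young ISC, 13.3, 11.6 and 16.3 CPM in aged ISC, 3.68, 7.28 and 5.5 CPM in young AE and 3.04, 3.94 and 5.12 CPM in aged AE, with no overlap of the cell types. AE held 34.7% and 29.4% of the ISC mean of *Ccne2*, and *Cdk2* held 24.6% and 18.1%, and both passed the test at each age. The exons of *Ccnd1*, *Ccnd2*, *Ccne2* and *Cdk2* lie in genes that overlap another gene of the table, and the strand setting of the count is not given, so reads of the neighbour could be included. *Gmnn*, *Pcna* and *E2f2* overlap no other gene.

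Among the transcription factors, *Myc*, which drives growth and is a target of Wnt signalling in crypts, had the largest fall of all members in young mice. It was 172, 155 and 108 CPM in young ISC, 163, 139.8 and 121 CPM in aged ISC, 4.83, 21 and 1.67 CPM in young AE and 3.42, 4.3 and 3.49 CPM in aged AE. The log2 fold change was -4.04 (SE 0.93, FDR 0.0108) in young and -5.30 (SE 0.21, FDR 1.33e-07) in aged mice. *E2f1*, an activator of S phase genes, was 32.9, 36.6 and 28.3 CPM in young ISC, 41.6, 22.8 and 28.4 CPM in aged ISC, 1.55, 5.04 and 0.959 CPM in young AE and 1.43, 1.16 and 0.436 CPM in aged AE (14.3-fold lower, FDR 0.00156, and 31.4-fold lower, FDR 1.41e-06). The late factors were reduced too. *Foxm1* was 74.6, 49.98 and 55.3 CPM in young ISC, 62.6, 50.2 and 80.1 CPM in aged ISC, 4.58, 17.3 and 1.64 CPM in young AE and 2.66, 4.48 and 4.79 CPM in aged AE (8.001-fold lower, FDR 0.0216, and 16.97-fold lower, FDR 6.1e-07). *Mybl2* was 22.5, 19.97 and 20.99 CPM in young ISC, 22.9, 12.5 and 24.4 CPM in aged ISC, 4.01, 4.46 and 1.38 CPM in young AE and 1.71, 1.61 and 1.96 CPM in aged AE (6.92-fold lower, FDR 0.000887, and 11.9-fold lower, FDR 4.55e-06).

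*E2f2*, a paralogue of *E2f1*, did not follow. Its level was 61.4, 46.1 and 53.5 CPM in young ISC and 55.9, 34.9 and 20.8 CPM in young AE, so that young AE library 1 lay within the range of ISC while libraries 2 and 3 lay below it. The difference was not called (log2 fold change -0.54, SE 0.33, FDR 0.199), and without young AE library 1 it was -0.98 (FDR 0.0223). In aged mice *E2f2* was 57.9, 45.8 and 63.3 CPM in ISC and 14.7, 15.8 and 22.01 CPM in AE, 3.35-fold lower (log2 fold change -1.74, SE 0.20, FDR 2.5e-05). AE held 31.4% of the ISC mean of *E2f2* in aged mice, against 3.26% of that of *E2f1*.

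**Figure D2:**
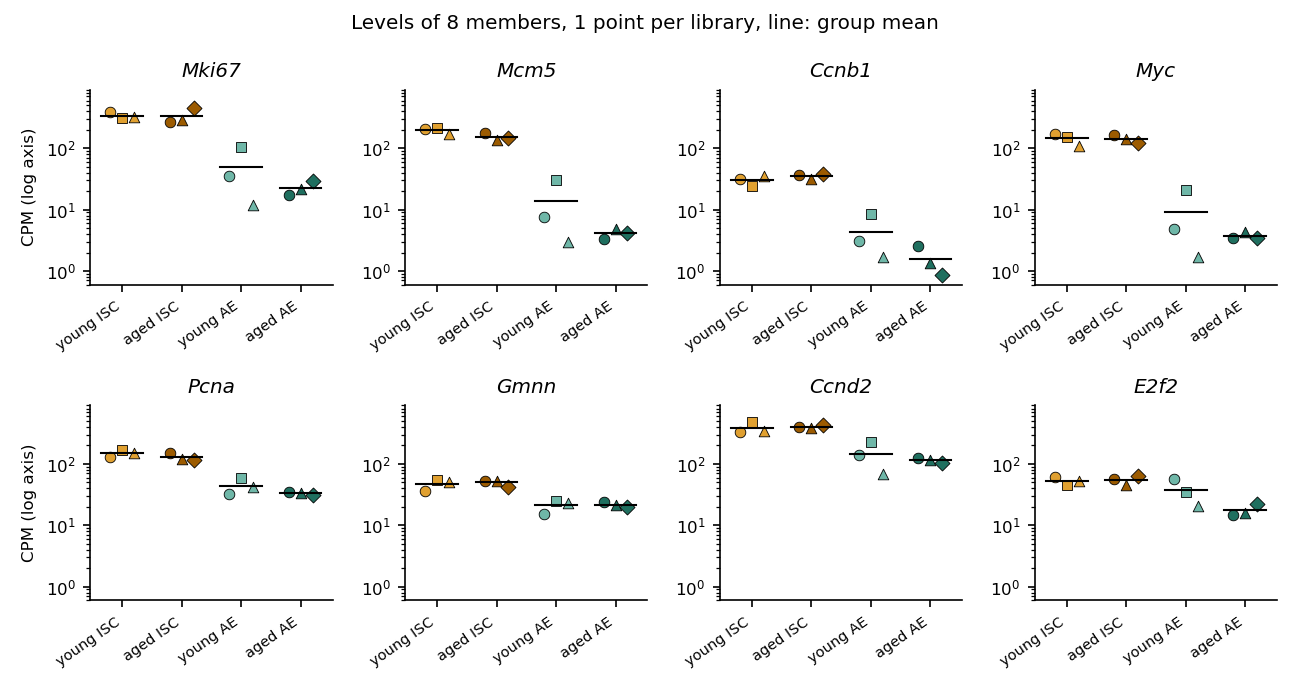
CPM on a log axis of 8 members in each library by group, with marker shapes for the number in the library code and a line at the group mean. *Mki67*, *Mcm5*, *Ccnb1* and *Myc* lie far lower in AE than ISC, *Pcna*, *Gmnn* and *Ccnd2* lie closer, and *E2f2* overlaps between young ISC and young AE.

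The mitotic kinases, with their checkpoint and the anaphase-promoting complex, drive chromosome segregation. All 10 genes were lower in AE at both ages. The log2 fold changes lay between -3.37 and -2.38 in young mice. In aged mice they lay between -5.01 and -3.54. *Aurkb*, the kinase of the chromosomal passenger complex, was 73.6, 57.4 and 65.1 CPM in young ISC, 73.8, 61.8 and 80.2 CPM in aged ISC, 3.52, 16.4 and 1.81 CPM in young AE and 2.76, 2.24 and 1.96 CPM in aged AE. It was 9.46-fold (FDR 0.0151) and 32.3-fold (FDR 1.33e-07) lower in AE. *Cdc20*, an activator of the anaphase-promoting complex, was 88.8, 77.1 and 94.4 CPM in young ISC, 103, 109 and 101 CPM in aged ISC, 12.3, 33.2 and 5.37 CPM in young AE and 9.51, 8.6 and 9.59 CPM in aged AE (5.21-fold lower, FDR 0.0185, and 11.9-fold lower, FDR 1.33e-07). The checkpoint kinases *Bub1*, *Bub1b* and *Ttk* and the polo kinase *Plk1* had log2 fold changes of -3.04, -3.07, -3.08 and -2.76 in young and -4.68, -4.20, -4.47 and -3.85 in aged mice. *Aurka*, the survivin gene *Birc5*, the ubiquitin-conjugating enzyme *Ube2c* and the kinase *Pbk* were -2.62, -2.48, -2.95 and -3.37 in young and -3.70, -3.54, -4.17 and -4.89 in aged mice.

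The 12 genes of the kinetochore, spindle and cytokinesis were all lower in AE, with medians of -2.60 in young and -3.96 in aged mice. The centromeric histone *Cenpa* was 91.3, 68.1 and 87.3 CPM in young ISC, 101, 93.7 and 108 CPM in aged ISC, 13.98, 24.7 and 5.31 CPM in young AE and 8.56, 8.87 and 6.43 CPM in aged AE (5.71-fold lower, FDR 0.00647, and 13.3-fold lower, FDR 1.75e-07). *Kif11*, the motor that separates the spindle poles, was 111, 89.8 and 106 CPM in young ISC, 92.2, 90.4 and 130.3 CPM in aged ISC, 8.83, 30.3 and 4.03 CPM in young AE and 6.94, 5.64 and 4.14 CPM in aged AE (7.27-fold lower, FDR 0.0155, and 19.5-fold lower, FDR 2.97e-07). The other 10 genes, among them the spindle factors *Tpx2* and *Nusap1* and the cytokinesis genes *Anln*, *Ect2*, *Kif23* and *Prc1*, lay between -3.22 (*Nusap1*) and -2.32 (*Cenpe*) in young mice. In aged mice they lay between -4.57 (*Nusap1*) and -3.14 (*Anln*). *Mki67*, whose product coats mitotic chromosomes and marks cycling cells, was 391, 308 and 318 CPM in young ISC, 269, 292 and 446 CPM in aged ISC, 35.2, 103 and 11.7 CPM in young AE and 17.6, 21.5 and 29.4 CPM in aged AE. It was 6.83-fold (FDR 0.0201) and 15.5-fold (FDR 8.02e-07) lower in AE. Topoisomerase II alpha, *Top2a*, was 479.6, 402 and 379 CPM in young ISC, 399, 312 and 471 CPM in aged ISC, 26.3, 98.4 and 8.04 CPM in young AE and 14.2, 13.6 and 15.4 CPM in aged AE (9.57-fold lower, FDR 0.0195, and 28.8-fold lower, FDR 1.33e-07).

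The members moved together between young AE libraries. Young AE library 2 was the highest of the 3 young AE libraries in 52 of 53 members, and young AE library 3 was the lowest in 46. Among the aged AE libraries no single one stood out in this way, libraries 1, 3 and 5 being the highest in 20, 19 and 14 members and the lowest in 17, 12 and 24. The order of libraries was not counted over all genes, so it is not shown to be particular to the members. The members together summed to 719, 1637 and 409 CPM in young AE libraries 1, 2 and 3, to 533, 517 and 489.6 CPM in aged AE libraries 1, 3 and 5, and to between 5023 and 6018 CPM in ISC. Relative to the ISC mean of the same age, the median member stood at 10.3%, 27.2% and 4.46% in the young and at 6.43%, 6.37% and 6.06% in the aged AE libraries. Stem cell markers were in the same order as the members in young AE, with sums of 225.8, 644 and 97.2 CPM. In aged AE they summed to 111, 188 and 171 CPM, so that library 1 had the largest sum of members and the smallest sum of stem cell markers. Each of the 10 markers was lower in AE than ISC at both ages. Paneth markers summed to 75.6, 226.5 and 52.2 CPM in young AE and to 52.0, 91.5 and 58.6 CPM in aged AE. As a share of the ISC mean the summed stem cell markers stood at 3.17%, 9.04% and 1.36% in young and 1.58%, 2.69% and 2.44% in aged AE. Single markers differed, since 2 of 10 in young mice (*Axin2* and *Sox9*) and 3 of 10 in aged mice (*Axin2*, *Sox9* and *Rgmb*) were less reduced than the median member. For each 100 CPM of stem cell markers, the 22 mitotic members amounted to 18.1 to 25.4 CPM in ISC and to 56.6 to 97.8 CPM in AE. Most of the stem cell marker sum in ISC was *Olfm4* (3460 to 5453 CPM). In AE *Olfm4* was 23.15 to 337.5 CPM, a smaller part of the sum, so the shares and the ratio depend largely on this gene. The ISC gate selected for GFP from the *Lgr5* promoter, and *Lgr5* is among these markers. AE were gated as negative for the dye on the CD31 and CD45 antibodies, in mice that also carried the GFP knock-in. Whether that gate left out GFP-positive cells is not stated. The part of the gates in the ratio of mitotic members to stem cell markers was not tested. The part of crypt cells in the AE values was not tested.

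**Figure D3:**
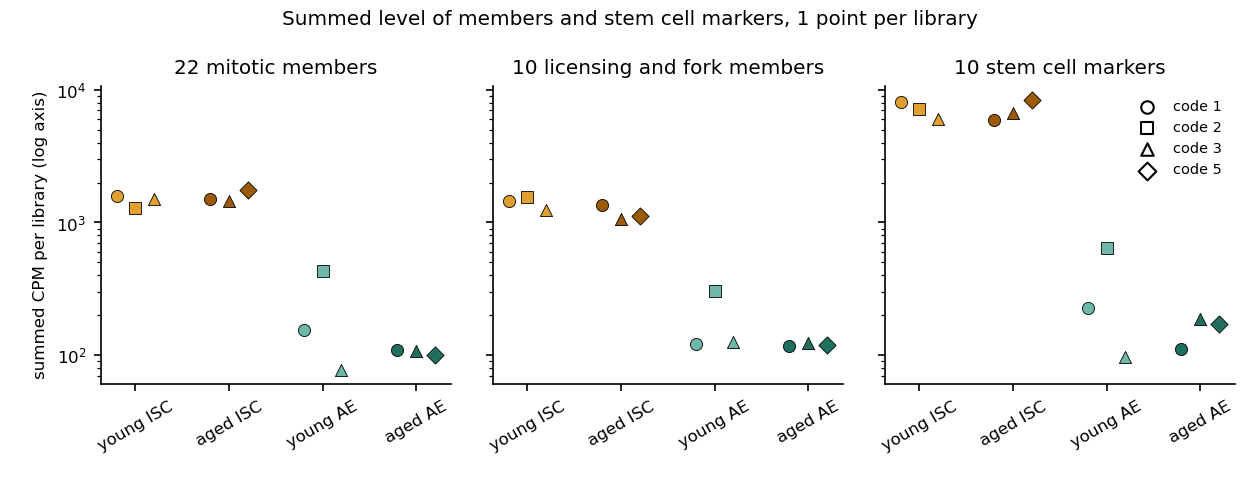
Summed CPM on a log axis of the 22 mitotic members, the 10 licensing and fork members and the 10 stem cell markers in each library, by group and with marker shapes for the number in the library code. Young AE library 2 is the highest AE library in each panel, with 644 CPM of stem cell markers, and the aged AE libraries lie close together for both sets of members.

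Aged ISC were compared with young ISC to ask whether the proliferation programme of stem cells shifts with age. None of the 53 members was called by edgeR (lowest FDR 0.968), and neither was any of the 15552 genes tested (0%). At the same FDR threshold, the authors reported genes changed with age in both ISC and AE from DESeq2 in SeqMonk. They described proliferation markers such as *Myc* as unchanged with age. At an unadjusted p below 0.05 there were 2 members, *Mcm2* and *Mcm5*, against 5.04% of all genes. DESeq2 and limma-voom also called no member and had 2 each below an unadjusted p of 0.05, against 4.34% and 4.55% of all genes. The share of all genes that these tests called is not given here. The median log2 fold change of the members was 0.05 (all genes 0.01), with 24 negative and 29 positive values, none below -0.42 or above 0.33. All 3 aged libraries were below all 3 young ones in 2 members, *Mcm2* and *Tyms* (4.41% of all genes), and above them in 2, *Cdc20* and *Cenpa* (4.43% of all genes).

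Within these small differences the roles lay on opposite sides of 0, which is given as a description. Of the 10 licensing and fork genes 9 had a lower mean in aged ISC (median -0.24), as had 3 of 4 genes of nucleotide supply (median -0.19). Of the mitotic kinases and checkpoint genes 8 of 10 were higher (median 0.10), and 11 of 12 genes of the kinetochore, spindle and cytokinesis (median 0.14). When single ISC libraries were left out, 9 or 10 licensing and fork genes stayed lower (medians -0.37 to -0.15) and 7 to 9 mitotic kinases and checkpoint genes higher (medians 0.04 to 0.17). The kinetochore, spindle and cytokinesis genes turned to a median of -0.04, with 8 of 12 lower, without aged ISC library 5, and to 0.04 without young ISC library 2. *Mcm2* was 178, 173 and 133 CPM in young and 132, 102 and 126 CPM in aged ISC (log2 fold change -0.42, SE 0.17, FDR 0.968), and the highest aged library lay just below the lowest young one. *Mcm5* was -0.36 (SE 0.15) and *Mcm3* -0.31 (SE 0.16). At the other end, cyclin B2, *Ccnb2*, was 88.3, 84.4 and 110.4 CPM in young and 123, 128 and 103 CPM in aged ISC (log2 fold change 0.33, SE 0.16), with aged library 5 below young library 3. *Cenpa* was 0.30 (SE 0.15) and *Cdc20* 0.27 (SE 0.13). *Mki67* was -0.01 (SE 0.21) and *Myc* -0.03 (SE 0.19), both differences being well within the spread between libraries.

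Within a library, the mean log2 CPM of the 22 mitotic members minus that of the 10 licensing and fork members was -0.78, -1.24 and -0.71 in young ISC libraries 1, 2 and 3. It was -0.85, -0.52 and -0.32 in aged ISC libraries 1, 3 and 5. The groups overlapped, since aged library 1 lay below 2 of the young libraries. Genes within a role share the same libraries and vary together, so their number is not a number of replicates. T cell and intraepithelial lymphocyte markers, which the ISC gate did not select against, summed to 22.6, 9.30 and 10.2 CPM in young and 3.73, 4.96 and 3.07 CPM in aged ISC, and enterocyte markers to 3062, 2646 and 6603 CPM in young and 1100, 3568 and 1811 CPM in aged ISC. Their part in the members' differences was not tested.

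**Figure D4:**
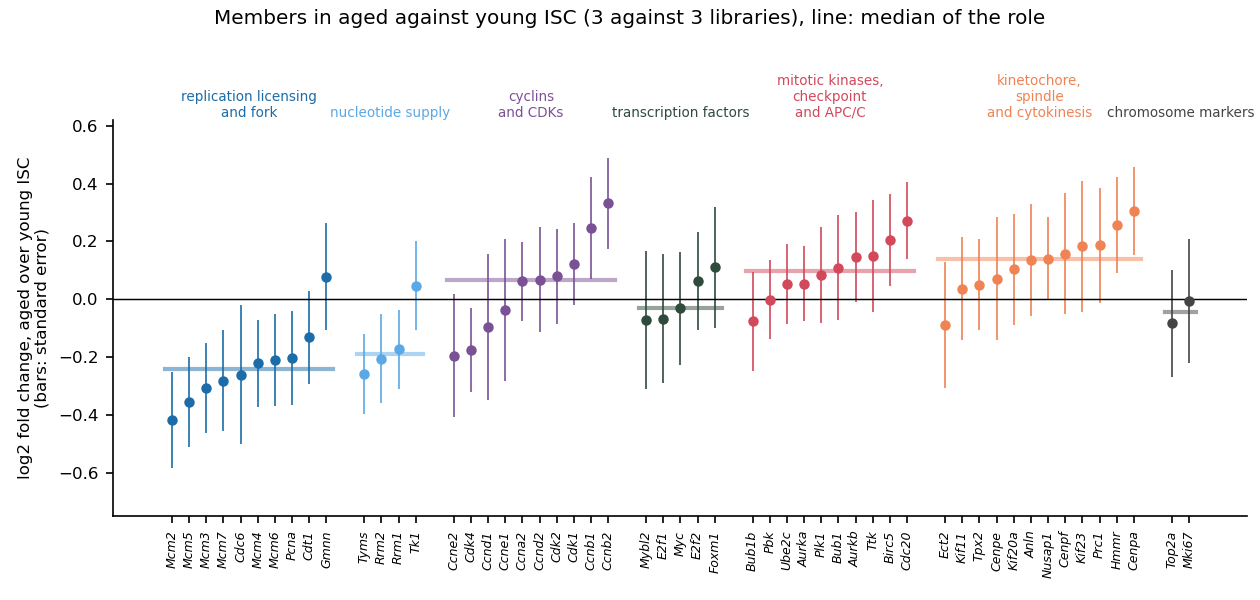
Log2 fold change of aged over young ISC for the 53 members by role, with standard errors and a line at the median of each role. The licensing and fork genes lie mostly below 0 (median -0.24) and the genes of the kinetochore, spindle and cytokinesis mostly above it (median 0.14, and -0.04 without aged ISC library 5), and no member passed the test.

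In AE, 51 of 53 members had a lower mean in aged than in young libraries, as had 8905 of 16265 genes tested. Their median log2 fold change was -1.07, against -0.04 over all genes. But no member was called by edgeR (lowest FDR 0.844), as was none of the 16265 genes tested (0%). The authors' DESeq2 test did call genes in AE. At an unadjusted p below 0.05 there were 4 members, *Mcm7*, *Tyms*, *E2f2* and *Cenpe*, against 4.79% of all genes. Run here, DESeq2 also called no member, with 21 members below an unadjusted p of 0.05 against 5.67% of all genes. The share of all genes that it called is not given here. The aged libraries were all below the young ones in 1 member, *Tyms* (6.98% of all genes), and all above them in none (3.95% of all genes). In 34 of 53 members all 3 aged values lay inside the range of the 3 young values. This count was not made over all genes.

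The largest differences were those of *Rrm2* (6.21, 18.02 and 1.29 CPM in young and 3.04, 2.06 and 0.654 CPM in aged AE, log2 fold change -2.01, SE 1.05), *Mcm3* (-1.97, SE 1.04) and *Mcm5* (-1.66, SE 0.87). Each had a standard error of at least 0.87, and none had an unadjusted p below 0.05. Values above 0 were found for *Cdc6* (0.07, SE 0.57) and *Gmnn* (0.04, SE 0.23) alone. *Tyms* was 6.3, 14.7 and 4.57 CPM in young and 3.14, 4.48 and 2.94 CPM in aged AE (log2 fold change -1.20, SE 0.48, FDR 0.844), with the highest aged value just below the lowest young one. *E2f2* was -1.06 (SE 0.35), with aged library 5 just above young library 3.

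The size of these differences rested on single young libraries. Without young AE library 2 the median log2 fold change was -0.12, with 32 members lower and 21 higher and 2 below an unadjusted p of 0.05 (4.22% of all genes). Without young AE library 3 it was -1.52, with 52 members lower and 46 below an unadjusted p of 0.05 (14.9% of all genes), although the lowest FDR was 0.157 and none was called. *E2f2* was -1.09 without library 2, -1.35 without library 3 and -0.64 without library 1. The deepest library, young AE 3, held 110794420 counts and the other AE libraries 12728661 to 15473227. Stem cell marker sums of the young AE libraries were in the same order as those of the members, as given above, and their part was not tested.

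**Figure D5:**
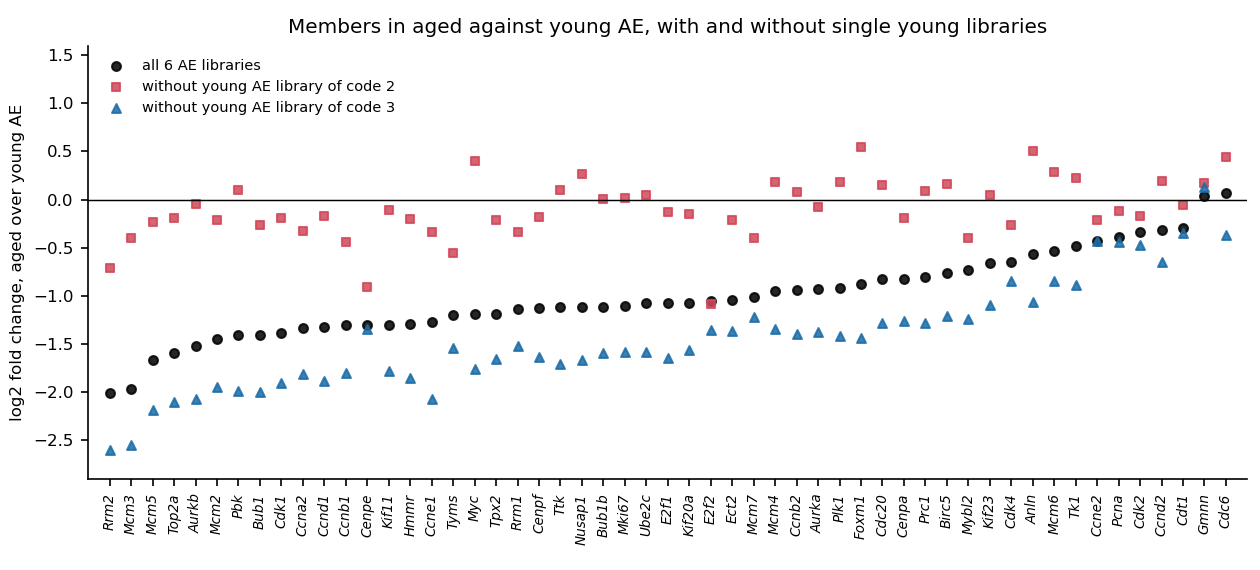
Log2 fold change of aged over young AE for the 53 members, ordered by the value from all 6 AE libraries (circles) and shown also without young AE library 2 (squares) and without young AE library 3 (triangles). The median moves from -1.07 to -0.12 without library 2 and to -1.52 without library 3.

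The age effects in AE and ISC were compared directly over all 12 libraries. No member had a called difference (0.00575% of 17377 genes, that is 1 gene, which is no member), and 3 were below an unadjusted p of 0.05, *Ccnb1*, *E2f2* and *Cenpe*, against 3.88% of all genes. DESeq2 called no member and had 8 below an unadjusted p of 0.05, against 4.21% of all genes. The share of all genes called by DESeq2 is not given here. The difference was -1.56 for *Ccnb1* (SE 0.71), -1.13 for *E2f2* (SE 0.41) and -1.38 for *Cenpe* (SE 0.48) on the log2 scale. The values ranged from -1.82 for *Rrm2* to 0.32 for *Cdc6*, and 52 of 53 were negative, against 10235 of all 17377 genes. The median difference of the members, -1.10, was -0.13 without young AE library 2.

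Other genes of the cell cycle were counted for context. Of 26 further mitotic genes, 26 were called lower in AE than ISC in young mice and 25 in aged mice (26.7% and 34.2% of all genes). Securin, *Pttg1*, was the least different (-0.62, FDR 0.0423 and -0.40, FDR 0.177). Of 21 regulators 13 were called lower and 1 higher in young mice, and 15 lower and 2 higher in aged mice. Over all genes, 4817 of 16681 were called higher in young and 4857 of 15855 in aged mice. The regulators called higher were *Rb1* and, in aged mice, *Rbl2*, both pocket protein genes, whose products hold E2F factors inactive. *Rb1* was 19.6, 20.8 and 32.7 CPM in young ISC, 20.3, 21.4 and 32.6 CPM in aged ISC, 63.9, 103 and 97.1 CPM in young AE and 99.6, 116 and 116 CPM in aged AE (log2 fold change 1.85, FDR 0.000642 and 2.09, FDR 8.17e-06). *Rbl2* passed in aged mice alone (0.50, FDR 0.078 and 0.51, FDR 0.0183). The third pocket protein gene, *Rbl1*, was lower in aged AE (-0.48, FDR 0.0395) and not called in young mice (-0.34, FDR 0.161).

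The inhibitors of cyclin-dependent kinases went both ways. *Cdkn1a*, which encodes p21, was 40.1, 33.02 and 65.2 CPM in young ISC, 32.4, 36.5 and 27.2 CPM in aged ISC, 415, 363 and 384 CPM in young AE and 372, 412 and 428 CPM in aged AE. It was higher in AE by 3.07 (SE 0.27, FDR 0.000113) in young and 3.59 (SE 0.19, FDR 2.16e-07) in aged mice on the log2 scale, and its AE libraries lay close together. *Cdkn2b*, an inhibitor of CDK4 and CDK6, was higher by 2.70 (FDR 0.000308) and 3.08 (FDR 8.74e-05), and *Cdkn1c* by 1.71 (FDR 0.0161) and 0.90 (FDR 0.0388). *Cdkn2c* was lower in AE (3.99-fold, FDR 0.000417, and 4.05-fold, FDR 1.23e-05), and *Cdkn1b* was lower in aged mice (-0.45, FDR 0.0374) and not called in young mice (-0.29, FDR 0.112). With age, edgeR called 0 genes of these lists in either cell type (0% of all genes). At an unadjusted p below 0.05 there were 1 in ISC and 2 in AE, all regulators, against 5.04% and 4.79% of all genes.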

How the data were processed

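Directional poly(A) libraries were sequenced, and per the labels and the methods the authors trimmed reads with Trim Galore 0.4.4, mapped them to GRCm38 with HISAT2 2.1.0 and quantified uniquely mapped reads per gene with SeqMonk, over exons after merging transcripts. The authors deposited the raw counts, which were used here without change. Their table of differentially expressed genes, with log2 values and test results, was not used. The annotation release and the strand setting of the count are not given in the sources used here. 0 columns of other samples were present.

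For each comparison, genes whose counts totalled 10 or more were kept, TMM factors were computed, and edgeR 4.0.16 was run (quasi-likelihood test, robust) in R 4.3.3, with Benjamini-Hochberg adjustment over all genes and an FDR threshold of 0.05. CPM were scaled by TMM, and 3 counts correspond to 0.036 to 0.327 CPM. The lowest count of a member in any library was 4. Libraries of the same group differed beyond counting noise. Alternatives were DESeq2 1.42.0, limma-voom (limma 3.58.1, ISC by age), RLE scaling, stricter and no filtering, estimating the spread over all 4 groups, thinning of the deepest library, leaving out each library, and a replicate block. Tests without the robust setting and with the earlier dispersion estimator were added after the data were seen. The test was run on simulated data first.

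The members, the other lists and the tests were chosen with earlier results of these data known. The rule for named genes took all members by role, with values in every library for 22 of them, and added the 3 largest rises and 3 largest falls of each comparison and any member with a sign opposite to most in AE against ISC. A few members of these are given by fold change alone. Positions of 52 of 53 members equal GENCODE M21, from which exon lengths were taken, and 19 overlap another gene. The number in the library code is shared by ISC and AE libraries of an age. Libraries with the same number deviated together from their group means (correlations over genes 0.121 to 0.287 in 6 pairs, -0.214 to 0.0584 in 12 other pairs), so the number served as the block. Deviations within a group of 3 libraries cancel out, so the values of the 12 pairs are not independent of those of the 6. A list of further replication genes is not reported here.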

Additional observations from a re-analysis of the deposited data

How the results depend on the processing

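The count of members lower in AE than ISC was 50 to 52 of 53 in young mice under the tests, scalings and filters tried, 52 with the replicate block and 48 to 52 when single libraries were left out, and 53 of 53 in aged mice under each of these. The share of all genes called lower under these alternatives is not given here, except without young AE library 1 (25.9%). The replicate block changed the call of *Ccnd1* in young mice only among the members followed singly (*Mki67*, *Mcm5*, *Ccnb1*, *Ccnd1*, *Cdk4*, *Myc*), from not called to called. *Ccnd1* was also called by DESeq2 (FDR 0.0466), without the robust setting (FDR 0.0429) and in the fit on all 4 groups (FDR 0.0260). No member was called by age in either cell type, or for the difference of age effects, under any alternative, the block included. The share of all genes called is not given for these alternatives either. The median log2 fold change by age in ISC was between -0.04 and 0.09 without single libraries, turning negative without young library 2 or aged library 5. In AE it was between -1.52 and -0.12, and in the difference of age effects between -1.62 and -0.13, -0.74 with the replicate block. With 3 libraries a group, standard errors of members by age in AE ran from 0.23 (*Gmnn*) to 1.05 (*Rrm2*) on the log2 scale. Even the -2.01 of *Rrm2* was not called, and the smallest change that could be called was not tested. The cause of the shifts of these medians was not tested.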
